A study of Mus musculus with 10 samples.

Results

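Chemokines are small secreted proteins that guide moving cells, and chemokine receptors are the membrane proteins that read them. The genes described here were all those in the deposited expression matrix whose symbol began with Ccl, Cxcl, Ccr, Cxcr, Xcr, Xcl, Cx3cl, Cx3cr or Ackr followed by a digit, which gave 60 of the 21969 genes listed, 37 of them ligands and 23 receptors. The samples were mouse testis cells of the inbred strain DBA/2. Adult testicular cells were sorted on their CD9, a surface protein, by a magnetic method and sequenced at week 0, or after 1, 2 or 3 weeks in an Iscove's-based medium that held the growth factors GDNF and FGF2 and fetal bovine serum. The fifth group was DBA/2 GS cells, which are germline stem cell lines kept in long-term culture, in the same medium. Each of the 5 groups had 2 libraries of stranded, poly(A)-selected RNA. The sources used here do not say whether the 2 libraries of a group came from separate animals or cultures, or if the cultures had feeder cells, so the p-values measure the spread between libraries, which may be technical.

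A chemokine binds a receptor with 7 membrane-spanning segments that signals through inhibitory G proteins and turns the cell towards the source of the ligand. Inflammatory chemokines such as CXCL1 and CCL2 are made by stromal cells and leukocytes when NF-kB is active, and they draw neutrophils and monocytes, whereas homeostatic chemokines such as CXCL12 are made by resting stroma and hold stem cells in their niches. In the testis, Sertoli cells make CXCL12 and spermatogonial stem cells carry its receptor CXCR4. Atypical receptors bind chemokines without G protein signalling and remove them.

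Levels are FPKM, fragments scaled to transcript length and library size, a unit that allows levels of different genes to be set side by side. Differences are given on the log2(FPKM + 1) scale, which understates the change of genes with low values. They come from limma, fitted over the 15671 genes that reached FPKM 1 in 2 libraries or more, and a gene was called higher or lower at an adjusted p under 0.05. In that fit each group mean rests on 2 libraries, and consecutive comparisons share a group. The depth recovered from the steps of the low values ran from 10343000 to 21059000 reads, and the 2 libraries of a group correlated at 0.9869 to 0.9935 across genes. The labels call the cells spermatogonial stem cells. The summed FPKM of 16 genes listed as markers of undifferentiated spermatogonia ran from 411.6 to 424.2 in week 0 and from 1401 to 1472 in GS cells. Most of the week 0 sum came from Ddx4 (213 and 185) and Dazl (107 and 116), whose specificity for these cells was not tested. Ddx4 was lower in both GS libraries than in both week 0 libraries. Of the 16 genes, 15 were called higher in GS cells than at week 0 and 1 lower. In contrast, 8 spermatid markers summed to 23610 to 25350 in week 0 and to 160.4 to 172.8 in week 1. Markers of later germ cells were thus high in the selected cells and low in all cultures.

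Of the 60 genes 34 passed the filter, 24 ligands and 10 receptors. At week 1, 19 of these 34 were called higher than at week 0 and 13 lower. Over all genes tested, 36.3% were called higher and 44.0% lower in that comparison, so calls were common everywhere. The median log2 difference was 0.93 over the 34 genes and -0.14 over all genes tested. Ligands and receptors were called in different proportions, with 15 ligands higher and 7 lower against 4 receptors higher and 6 lower; the difference between these proportions was not tested. Both week 1 libraries stood above all 8 others in 18 of the 34 genes, compared with 17.1% of all genes tested. Both week 0 libraries stood above all 8 others in 11, compared with 38.2%. Of the 34 genes 6 reached FPKM 1 in only 1 group, Ccr1 in week 1 and 5 receptors in week 0, among them Ccr4, Ccr6, Cx3cr1 and Cxcr5, and these passed the filter through the group where they were high. Without them the count at week 1 was 18 higher and 8 lower of 28. Of the same 28, both week 1 libraries stood above all others in 17 and both week 0 libraries in 6.

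**Figure D1:**
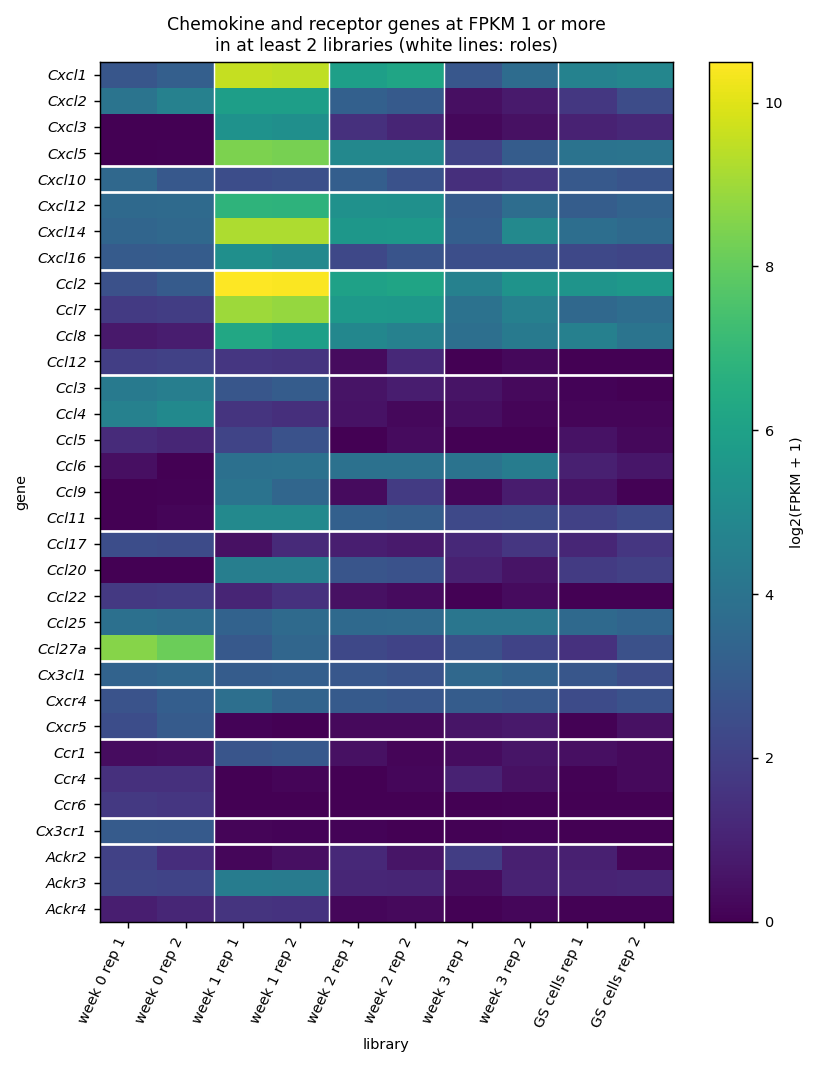
Level of 33 of the 34 genes that passed the filter (vertical axis, grouped by role) in each of the 10 libraries (horizontal axis), as log2(FPKM + 1) on the colour scale. In the 2 week 1 libraries the brightest genes are Ccl2, Cxcl1, Cxcl14, Ccl7 and Cxcl5, and Ccl27a is the brightest gene in the 2 week 0 libraries.

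The CXC ligands that carry the ELR motif act on CXCR2, the receptor by which neutrophils enter inflamed tissue. All 4 that passed the filter, Cxcl1, Cxcl2, Cxcl3 and Cxcl5, rose at week 1, fell at week 2 and again at week 3, and were called higher in GS cells than at week 3. Cxcl1 was at FPKM 6.0 and 7.94 in the 2 week 0 libraries, at 765 and 724 in week 1, at 60.4 and 70.6 in week 2, at 6.13 and 11.9 in week 3, and at 24.0 and 27.5 in GS cells. The week 1 libraries stood apart from all others, and weeks 0 and 3 overlapped. The mean at week 1 was 107-fold that of week 0 (log2 difference 6.56, SE 0.25, limma adjusted p = 5.44e-08). Cxcl5, made mostly by epithelial and stromal cells, was listed at 0 and 0.06 in week 0 and at 347 and 328 in week 1, a log2 difference of 8.36 (SE 0.27, limma adjusted p = 1.83e-08). It was at 28.5 and 28.6 in week 2, at 3.15 and 7.36 in week 3 and at 15.0 and 15.4 in GS cells, so none of the cultured groups returned to the week 0 level.

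Cxcl3 was listed at 0 in both week 0 libraries and reached 40.2 and 36.2 in week 1. It then stood at 1.75 and 1.09 in week 2, at 0.17 and 0.39 in week 3, and at 1.00 and 1.24 in GS cells. Cxcl2, a product of activated macrophages among other cells, differed from the other 3 in starting high, at 15.4 and 23.3 in week 0. It reached 57.8 and 58.6 in week 1, a rise of 3.01-fold in the mean (log2 difference 1.57, SE 0.27, limma adjusted p = 0.000736), and fell to 8.40 and 6.89 in week 2 and to 0.35 and 0.70 in week 3. In GS cells, at 2.25 and 4.41, it remained below week 0 (log2 difference -2.25, limma adjusted p = 7.46e-05), whereas Cxcl1, Cxcl3 and Cxcl5 were called higher in GS cells than at week 0 (log2 differences 1.75, 1.08 and 3.97). The call of Cxcl3 between GS cells and week 3 (log2 difference 0.73, limma adjusted p = 0.016) was lost without week 3 replicate 1 (adjusted p = 0.0907) or without GS cells replicate 2 (adjusted p = 0.0852). Cxcl2 and Cxcl3 share 5.84% and 4.24% of their 50-base stretches of transcript, nearly all with each other, so a small part of their reads could have been assigned to either.

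The promoters of Cxcl1, Cxcl2 and Cxcl3 hold the kappaB motif, the DNA word read by NF-kB. The window searched ran from 250 bases before to 50 after the start in RefSeq's annotation of GRCm38.p6, and 46 of the 60 genes had one. The motif searched, GGG followed by any 2 bases and TTTCC on either strand, occurred in the windows of 6 of the 46 genes (13.0%), Cxcl1, Cxcl2, Cxcl3, Ccl20, Ccl9 and Ccr3, and in 535 of 32851 windows of all genes (1.63%). The first share counts genes, which had 53 windows in all, and the other counts windows, so the 2 shares differ in unit. Cxcl1 and Cxcl2 each held a pair of matches, within 97 bases of the start. Of the 34 genes that passed the filter, 25 had a window and 5 held the motif. All 5 were called higher at week 1, as were 19 of the 34 and 36.3% of all genes tested. Whether the motif goes with the rise was not tested. The stretches of 86 bases with the matches are printed here for these 5 genes. They read 5′ to 3′ on the strand of the gene, and capitals mark the motif or its reverse complement. A match is a run of letters and no evidence of binding.
Cxcl1, chr5:90891140-90891225, plus strand: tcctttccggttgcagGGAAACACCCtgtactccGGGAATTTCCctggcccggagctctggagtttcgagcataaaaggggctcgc
Cxcl2, chr5:90903794-90903879, plus strand: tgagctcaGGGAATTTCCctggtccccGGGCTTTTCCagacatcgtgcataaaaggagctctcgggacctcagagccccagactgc
Cxcl3, chr5:90785996-90786081, plus strand: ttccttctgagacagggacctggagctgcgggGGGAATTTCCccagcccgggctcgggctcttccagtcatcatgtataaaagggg
Ccl20, chr1:83116661-83116746, plus strand: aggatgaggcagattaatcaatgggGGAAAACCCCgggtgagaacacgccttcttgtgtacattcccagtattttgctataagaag
Ccl9, chr11:83578656-83578741, minus strand: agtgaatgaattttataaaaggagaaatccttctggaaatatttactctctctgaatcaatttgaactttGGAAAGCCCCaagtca

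The CC ligands of CCR2, the monocyte receptor, held the highest single level of the family. Ccl2, the main monocyte attractant, was at FPKM 5.14 and 7.17 in week 0 and at 1445 and 1367 in week 1, which made up 35.28% and 35.12% of the summed FPKM of all ligands in those libraries. It then stood at 63.6 and 69.2 in week 2, at 23.2 and 41.4 in week 3, and at 41.8 and 47.5 in GS cells. Every cultured library lay above both week 0 libraries. The mean rose 228-fold at week 1 (log2 difference 7.63, SE 0.24, limma adjusted p = 1.67e-08) and was still 7.25-fold that of week 0 in GS cells (log2 difference 2.69, SE 0.24, limma adjusted p = 1.11e-05). The smaller fall at week 3 (log2 difference -1.07, adjusted p = 0.0171) lost its call without either week 2 library (adjusted p = 0.0653 and 0.0896) or without week 3 replicate 1 (adjusted p = 0.0516).

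Ccl7, which shares CCR2 with Ccl2 and also binds other CC receptors, went from 2.42 and 2.77 in week 0 to 500 and 457 in week 1, about 15.0 and 21.1 reads against 5015 and 4379. It was at 48.3 and 47.5 in week 2, at 14.6 and 22.7 in week 3 and at 10.7 and 12.4 in GS cells. Its call between GS cells and week 3 (log2 difference -0.62, limma adjusted p = 0.0442) was lost in 9 of the 10 fits that each left out 1 library, all but the one without week 3 replicate 1, with adjusted p from 0.0592 to 0.195. Ccl8, another monocyte attractant, had a smaller fall at week 2 (log2 difference -1.36, SE 0.23) than Ccl2 and Ccl7 (-4.38, SE 0.24, and -3.29, SE 0.18). It was at 0.62 and 0.77 in week 0, 77.3 and 60 in week 1, 28.1 and 23.8 in week 2, 13.3 and 19.3 in week 3, and 22.8 and 15.4 in GS cells. The mean of GS cells was 27.5-fold that of week 0 for Ccl8 and 4.45-fold for Ccl7.

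Ccl12, a mouse relative of Ccl2 and a CCR2 ligand too, did not share this course. It was at 2.88 and 3.11 in week 0 and at 2.14 and 2.02 in week 1 (log2 difference -0.37, SE 0.25, limma adjusted p = 0.2), a difference called lower without either week 2 library (adjusted p = 0.0167 and 0.0155). At week 2 it was at 0.23 and 1.33, at week 3 at 0 and 0.16, and it was listed at 0 in both GS libraries. It was called lower in GS cells than at week 0 (log2 difference -2.0, SE 0.25, limma adjusted p = 9.63e-05). Its call at week 2 (log2 difference -0.86, adjusted p = 0.019) was lost without any 1 of the 4 libraries of weeks 0 and 1, with adjusted p from 0.0503 to 0.0724.

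The other inflammatory CC ligands split. Of the 6 that passed the filter, Ccl5, Ccl6, Ccl9 and Ccl11 rose at week 1, and Ccl3 and Ccl4, products of activated macrophages and lymphocytes, fell. Ccl3 was at 18.5 and 21.3 in week 0, 6.04 and 7.22 in week 1, 0.46 and 0.79 in week 2, 0.49 and 0.19 in week 3, and 0.08 and 0 in GS cells. Ccl4 was at 23.2 and 30.9 in week 0, 1.96 and 1.64 in week 1, and between 0.10 and 0.42 in all later libraries. Both genes were highest at week 0 with no overlap, and the mean at week 0 was 3.00-fold that of week 1 for Ccl3 and 15.0-fold for Ccl4 (log2 differences -1.45 and -3.31, SE 0.17 for both, limma adjusted p = 5.72e-05 and 3.04e-07).

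Ccl11, or eotaxin, an eosinophil attractant made by fibroblasts, was listed at 0 and 0.09 in week 0, or about 0 and 1.00 reads, and at 30.1 and 29.9 in week 1. It then stood at 8.21 and 7.51, at 3.98 and 4.33, and at 3.07 and 3.98 in week 2, week 3 and GS cells. Ccl9, a macrophage and dendritic cell attractant, was at 0 and 0.06 in week 0 and at 14.9 and 10.1 in week 1 (log2 difference 3.69, SE 0.46, limma adjusted p = 9.52e-05). Its week 2 libraries disagreed, at 0.23 and 2.59. Ccl5, known as RANTES, was at 1.46 and 1.20 in week 0 and rose to 3.44 and 5.31 in week 1 (log2 difference 1.19, SE 0.19, limma adjusted p = 0.000417). It was between 0 and 0.43 in every later library.

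Ccl6, a CCR1 ligand of myeloid cells, was the only ligand with high levels through 3 weeks of culture and low levels on either side. It was listed at 0.34 and 0 in week 0, at 13.8 and 14.2 in week 1, at 14 and 14.2 in week 2, at 15.0 and 20.3 in week 3, and at 0.91 and 0.55 in GS cells. The 6 libraries of weeks 1 to 3 did not overlap the other 4. The rise at week 1 (log2 difference 3.70, SE 0.20, limma adjusted p = 3.78e-07) and the fall between week 3 and GS cells (log2 difference -3.42, SE 0.20, limma adjusted p = 7.1e-05) kept their calls in all 19 alternative fits. The higher value in GS cells than at week 0 (log2 difference 0.57, adjusted p = 0.0247) lost its call without week 0 replicate 2 (adjusted p = 0.174) or without GS cells replicate 1 (adjusted p = 0.138). Of 13 macrophage and monocyte markers tested, 2 rose and 7 fell at week 1, and 2 were higher and 4 lower in GS cells than at week 3. Lyz2 had the highest level of these markers from week 0 to week 3. Its mean FPKM was 40.0 in week 0, 59.8, 63.55 and 77.6 in weeks 1 to 3, and 2.51 in GS cells. Its relation to Ccl6 was not tested. In bulk RNA fewer cells of a type and less RNA per cell cannot be told apart.

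Among the other CXC ligands, Cxcl12, Cxcl14 and Cxcl16 rose at week 1 and fell at week 2. Cxcl12, the CXCR4 ligand of stem cell niches, was at 11.0 and 11.4 in week 0, 112 and 108 in week 1, 38.8 and 37.6 in week 2, 7.17 and 12.3 in week 3, and 7.44 and 9.20 in GS cells. The mean at week 1 was 9.86-fold that at week 0 (log2 difference 3.19, SE 0.21, limma adjusted p = 1.3e-06). Cxcl14, an orphan CXC ligand of epithelia and stroma, went from 9.74 and 10.7 to 592 and 594, 58.1-fold in the mean (log2 difference 5.73, SE 0.46, limma adjusted p = 5.55e-06). At week 2 it was at 45.5 and 48.0, and its week 3 libraries lay far apart at 7.87 and 30.1. Neither Cxcl12 nor Cxcl14 passed the test between GS cells and week 0 (log2 differences -0.39 and 0.22, limma adjusted p = 0.111 and 0.673). Cxcl12 was called lower in GS cells without either week 3 library (adjusted p = 0.0125 and 0.0129), and its difference was 0.33 after quantile normalization and 0.05 on a common FPKM sum. Cxcl16, a membrane-bound ligand that is shed by proteases, went from 7.12 and 7.34 to 37 and 29.9 in week 1. It was between 3.58 and 5.53 in all later libraries. Its exons overlap those of Zmynd15 on the opposite strand by 552 bases, and the sources used here do not say if counting used strand.

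Cxcl10, an interferon-induced CXCR3 ligand that attracts T cells, did not join the rise at week 1. It was at 10.6 and 6.43 in week 0, 4.56 and 4.84 in week 1, 7.68 and 5.25 in week 2, 1.69 and 2.14 in week 3, and 6.72 and 5.65 in GS cells. Week 3 was the low group, without overlap, and the fall at week 3 (log2 difference -1.34, SE 0.24, limma adjusted p = 0.00693) and the rise in GS cells against week 3 (log2 difference 1.30, SE 0.24, limma adjusted p = 0.00777) passed the test. The latter was lost without GS cells replicate 1 (adjusted p = 0.0522). The lower call at week 1 (log2 difference -0.71, adjusted p = 0.0243) was lost without week 0 replicate 1 (adjusted p = 0.19) or without either week 1 library (adjusted p = 0.0844 and 0.0622). A form of the interferon-stimulated response element, TTTC followed by any 2 bases and TTTC on either strand, was in the windows of Cxcl10, Cxcl14 and Ccl19, and in 1131 of all 32851 windows (3.44%). In the Cxcl10 promoter it lies at bases -213 to -204, shown in capitals as its reverse complement in a stretch of 46 bases of GRCm38.p6 from RefSeq.
Cxcl10, chr5:92349074-92349119, minus strand: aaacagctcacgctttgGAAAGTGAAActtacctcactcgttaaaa

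The 5 CC ligands with homeostatic or lymphoid receptors that passed the filter moved apart. Ccl20, the CCR6 ligand, was listed at 0 in both week 0 libraries and at 21.5 and 21.4 in week 1 (log2 difference 4.49, SE 0.16, limma adjusted p = 2.98e-08). It then fell to 5.72 and 5.26 in week 2 and to 0.96 and 0.46 in week 3, and was at 2.51 and 2.94 in GS cells, so its order of groups was that of Cxcl5. Ccl27a, a CCR10 ligand known from skin keratinocytes, had the highest chemokine level at week 0. It was at 382 and 281 in week 0, where it made up 72.2% and 62.56% of the summed ligand FPKM, and at 6.72 and 9.92 in week 1, 3.82 and 3.37 in week 2, 4.89 and 3.29 in week 3, and 1.80 and 5.10 in GS cells. The mean at week 0 was 39.9-fold that at week 1 (log2 difference -5.16, SE 0.36, limma adjusted p = 2.17e-06).

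The value of Ccl27a is uncertain as a gene level, since 45.0% of its 50-base stretches also occur in other annotated genes, among them Gm20878, Gm13306 and Ccl27b. Its further fall at week 2 (log2 difference -1.0, adjusted p = 0.0442) lost its call in 8 of the 10 fits that left out 1 library, all but those without a GS cells library (adjusted p from 0.0518 to 0.201). Ccl17 and Ccl22, the pair of CCR4 ligands made by dendritic cells, were both highest at week 0. Ccl17 was at 4.63 and 4.30 in week 0, between 0.38 and 1.40 in weeks 1 and 2, and between 1.21 and 2.21 in week 3 and in GS cells. Ccl22 was at 2.31 and 2.52 in week 0, 1.13 and 1.80 in week 1, and at most 0.38 later. The lower value of Ccl22 in week 1 (log2 difference -0.48, adjusted p = 0.0179) was lost without either week 0 library or without week 1 replicate 1 (adjusted p from 0.0528 to 0.112), and Ccl17 in GS cells against week 0 (log2 difference -1.04, adjusted p = 0.00913) without either week 0 library or without GS cells replicate 1 (adjusted p from 0.0525 to 0.069).

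Ccl25, the CCR9 ligand of thymus and gut, and Cx3cl1, or fractalkine, a membrane-bound ligand made by endothelium and neurons, were above FPKM 4 in every library. Ccl25 stayed between 8.82 and 16.2 in all 10 libraries, with the 2 week 3 libraries highest at 16.2 each. Cx3cl1 stayed between 4.40 and 10.7. Ccl25 was called lower at week 1, higher at week 3 and lower in GS cells than at week 3 (log2 differences -0.34, 0.50 and -0.63, adjusted p = 0.0497, 0.0359 and 0.0155). Each of these was lost without some single library: the first without any 1 but week 1 replicate 2 (adjusted p from 0.0543 to 0.279), the next without any library of weeks 0, 2 or 3 (from 0.0602 to 0.149), and the last without either week 3 library or GS cells replicate 2 (from 0.062 to 0.0842). Cx3cl1 was called higher at week 3 than at week 2 (log2 difference 0.66, adjusted p = 0.0224) and lower in GS cells than at week 3 (-0.81, adjusted p = 0.0101). The former was lost without either week 2 library or week 3 replicate 1 (adjusted p from 0.0669 to 0.122), and the latter without week 3 replicate 1 or GS cells replicate 2 (0.0609 and 0.0562).

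**Figure D2:**
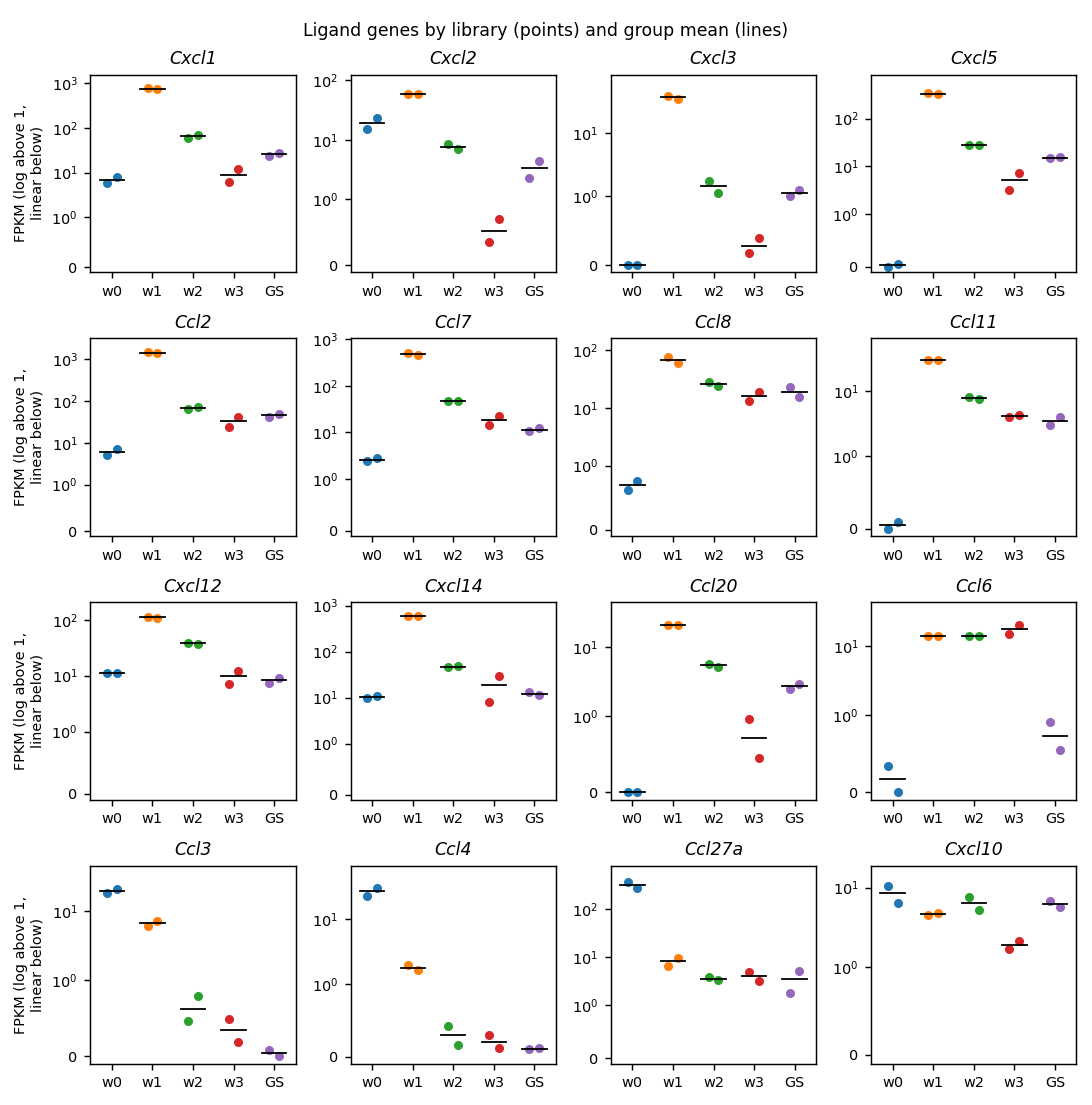
FPKM of 16 ligand genes (vertical axes, logarithmic above 1 and linear below, each with its own range) by group (horizontal axes: w0 to w3 are weeks 0 to 3, GS is GS cells), with 1 point per library and a line at the mean of 2. Week 1 is the highest group in 11 panels, week 3 in that of Ccl6, and week 0 in those of Ccl3, Ccl4, Ccl27a and Cxcl10.

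Receptors were low throughout. Summed over the 23 receptor genes, FPKM was 34.67 and 35.09 in week 0, 43.37 and 39.22 in week 1, and between 7.099 and 13.25 in all later libraries, whereas the 37 ligands summed to between 136.5 and 4096. Cxcr4, the CXCL12 receptor, was at 5.51 and 7.72 in week 0, 13.2 and 9.13 in week 1, 6.81 and 6.22 in week 2, 7.35 and 6.5 in week 3, and 4.26 and 5.26 in GS cells. It made up 55.45% to 69.77% of the receptor sum at weeks 2 and 3 and in GS cells. Its calls at week 1 (log2 difference 0.67, SE 0.21, limma adjusted p = 0.0158) and at week 2 (-0.67, limma adjusted p = 0.0233) were lost without week 1 replicate 1 (adjusted p = 0.104 and 0.135), and the first also without week 0 replicate 1 (0.131) and the other without either week 2 library (0.0618 and 0.101). Its difference between GS cells and week 0 did not pass the test (log2 difference -0.39, adjusted p = 0.109). It was 0.56 and called higher after quantile normalization (adjusted p = 0.0475), and 0.02 on a common FPKM sum.

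Ackr3, the atypical receptor that removes CXCL12, was at 3.62 and 3.35 in week 0 and at 20.4 and 19.7 in week 1, when it held 47.1% and 50.34% of the receptor sum. It was at 1.17 and 1.12 in week 2, 0.26 and 1.02 in week 3, and 1.05 and 1.11 in GS cells. The mean at week 1 was 5.77-fold that at week 0 and 17.6-fold that at week 2 (log2 differences 2.23 and -3.30, SE 0.20 for both, limma adjusted p = 1.04e-05 and 6.36e-06). Ackr4, which removes CCL19, CCL21 and CCL25, was at 0.82 and 1.20 in week 0, 2.02 and 1.94 in week 1, and at most 0.20 later. Ccr1, the myeloid receptor of Ccl3, Ccl5, Ccl6 and Ccl9, reached 5.76 and 6.39 in week 1 and was between 0.11 and 0.52 in every other library, about 253 and 268 reads against 4.0 to 26.0. These 3 genes and Cxcr4 were the receptors called higher at week 1.

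The other 6 receptors that passed the filter were called lower at week 1. Cx3cr1, the fractalkine receptor of monocytes and resident macrophages, was at 6.99 and 6.74 in week 0, at 0.10 and 0.09 in week 1 and at most 0.07 later. Cxcr5, the follicular B and T cell receptor, was at 4.66 and 7.06 in week 0 and between 0 and 0.62 in every other library. Its exons overlap those of Bcl9l on the opposite strand by 110 bases, and such overlaps also touch Cxcl10 (133 bases with Art3), Ccl25 (204 with Elavl1) and Ackr4 (479 with Acad11). Ccr6, the Ccl20 receptor, was at 2.3 and 2.2 in week 0 and was listed at 0 in 7 of the 8 cultured libraries, with 0.05 in the other.

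Ccr4, the receptor of Ccl17 and Ccl22, was at 1.72 and 1.71 in week 0, at most 0.13 in weeks 1 and 2, at 0.99 and 0.39 in week 3 and at 0.04 and 0.20 in GS cells. Its calls at week 3 (log2 difference 0.65, adjusted p = 0.0294) and in GS cells against week 3 (-0.57, adjusted p = 0.0438) were lost, among others, without week 3 replicate 1 (adjusted p = 0.128 and 0.197), and over the fits that lost them without 1 library the adjusted p ran from 0.0553 to 0.208. Ackr2, a scavenger of inflammatory CC ligands, varied between the libraries of a group, at 3.05 and 1.57, 0.14 and 0.36, 1.33 and 0.51, 2.72 and 0.91, and 0.92 and 0.10 from week 0 to GS cells. Its lower value at week 1 (log2 difference -1.38, SE 0.40, limma adjusted p = 0.0122) was lost without week 0 replicate 1 (adjusted p = 0.123) or week 1 replicate 1 (0.0621). Its lower value in GS cells than at week 0 (-1.15, adjusted p = 0.0271) was lost without week 0 replicate 1 (0.208) or GS cells replicate 2 (0.175).

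**Figure D3:**
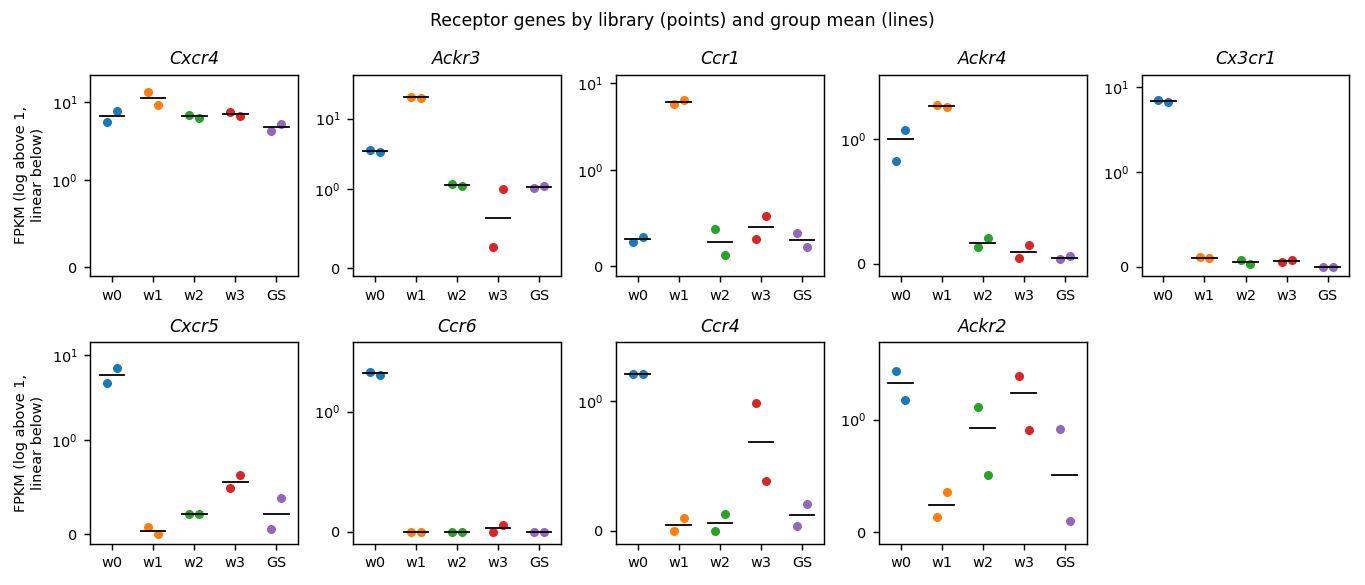
FPKM of 9 of the 10 receptor genes that passed the filter (vertical axes, logarithmic above 1 and linear below, each with its own range) by group (horizontal axes: w0 to w3 are weeks 0 to 3, GS is GS cells), with 1 point per library and a line at the mean of 2. Cxcr4, Ackr3, Ccr1 and Ackr4 peak at week 1, and the other 5 in week 0.

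Set beside their ligands, several receptors of the ligands that rose were at or near 0. Cxcr2, the receptor of Cxcl1, Cxcl2, Cxcl3 and Cxcl5, was at most 0.16 FPKM in any library, and Cxcr1 at most 0.26. Ccr2 was at 1.06 and 0.49 in week 0 and at most 0.12 in the 8 cultured libraries, among them those with Ccl2 at 1445 and 1367. Ccr3, the eotaxin receptor, was at most 0.12. Cxcr3, the receptor of Cxcl10, a ligand that did not rise, was at most 0.16. Some pairs had both sides above FPKM 1 in both libraries of a cultured group. Among them were Cxcl12 with Cxcr4 in all 4 cultured groups, Cxcl12 with Ackr3 in weeks 1 and 2 and in GS cells, Ccl25 with Ackr4 in week 1, and Ccr1 with its ligands Ccl3, Ccl5, Ccl6, Ccl7 and Ccl9 in week 1.

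Of the 26 genes below the filter, Ccl21b, Ccl26, Ccl27b, Ccr1l1, Cxcl17 and Xcl1 were listed at 0 in all 10 libraries, 13 were above 0 and never at FPKM 0.5, and 7 reached FPKM 0.5 in some library. Of these 7, Ccl24, another eotaxin, was at 0.79 and 2.63 in week 0 and was listed at 0 in all other libraries. Ccl1, a CCR8 ligand, was at 1.85 and 0.25 in week 0 and likewise at 0 in culture. Ccl21a, the lymph node homing ligand, was at 0 and 0.83 in week 0 and at 0 in culture, but 71.6% of its 50-base stretches are shared with other genes. Ccr7, its receptor, was at 1.09 and 0.67 in week 0, 0.27 and 0.50 in week 1, and at most 0.13 later. Cxcr6, the Cxcl16 receptor, was at 0.95 and 0.67 in week 1 and at most 0.20 elsewhere, and Cxcl15, a lung epithelial ligand, was at 0.31 and 0.59 in week 1 and at most 0.31 elsewhere. Ccr2 is given above.

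Many of the genes lie in clusters, taken here as members less than 500 kb apart. The clusters named here had 3 or more genes that passed the filter, and the others had at most 2. At week 1, 19 of the 34 genes that passed the filter and 36.3% of all genes tested were called higher. Whether position goes with the change was not tested. In the coordinates of GRCm38, 4 of the 5 genes at chr5:90759360-90905938 are the ELR ligands Cxcl5, Cxcl3, Cxcl1 and Cxcl2, and all 4 rose at week 1. The remaining one, Cxcl15, did not pass the filter. At chr11:82035571-82305690, Ccl2, Ccl7, Ccl11 and Ccl8 rose, while Ccl12, which lies between Ccl11 and Ccl8, did not pass the test and Ccl1 was below the filter. At chr11:83525778-83664683, Ccl5, Ccl9 and Ccl6 rose while the neighbours Ccl3 and Ccl4 fell. At chr8:94745590-94812036, Ccl22 and Ccl17 were called lower and Cx3cl1, which lies between them, did not pass the test.

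The summed ligand level rose and fell beside the fibroblast and matrix markers, but not beside every list of somatic cell markers. Over the 37 ligands, FPKM summed to 529.6 and 449.0 in week 0, 4096 and 3893 in week 1, 386.5 and 397.4 in week 2, 136.5 and 210.3 in week 3, and 176.2 and 182.4 in GS cells. At week 1 this was 0.5632% and 0.5502% of the whole library's FPKM, against 0.06156% and 0.05293% at week 0. The 14 fibroblast and matrix markers summed to 691.4 to 836.3 in week 0, 7562 to 7602 in week 1, 805.9 to 840.9 in week 2, 384.2 to 739.8 in week 3, and 696.3 to 718.2 in GS cells, and 14 of 14 rose at week 1 and fell at week 2. None of the 14 was at 0 in any group. Smooth muscle and peritubular myoid markers, 6 genes, summed to 817.2 to 963.1 in week 0 and 903.0 to 948.4 in week 1. Of these 6, 1 rose and 4 fell at week 1, and at week 2 their sum was 53.42 to 64.89. The sums of Leydig, Sertoli and endothelial markers were lower in week 1 than in week 0. The part of any of these cell types in the ligand levels was not tested.

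Leukocyte markers took several courses. The 16 macrophage and monocyte markers summed to 159.3 to 195.2 in week 0, 108.8 to 113.2 in week 1, 85.81 to 92.59 in week 2, 80.61 to 126.8 in week 3 and 33.94 to 36.02 in GS cells. Lyz2 made up most of this sum in weeks 1 to 3, with means of 59.8, 63.55 and 77.6, and Cd68 in GS cells, with 26.0. The means of C1qa and Csf1r went from 26.7 and 13.3 in week 0 to 0.88 and 0.95 in week 1. Those of Cd14, Cd68 and Lyz2 went the other way, from 4.69, 8.69 and 40.0 to 15.7, 13.7 and 59.8. Of the 13 tested, 2 rose and 7 fell at week 1, and 3, 6, 8, 8 and 11 of the 16 were under FPKM 1 from week 0 to GS cells. The 9 neutrophil markers summed to 100.2 to 106.9 in week 1 and to at most 5.0 in other groups, so this sum was high in the same group as the ligand sum. Of 5 neutrophil markers tested, 2 rose at week 1, S100a8 (0 in both week 0 libraries, 92.1 and 93.2 in week 1) and Camp (0 in both, then 7.75 and 11.7), and 1 fell, Csf3r. S100a9, Csf3r, Ngp and Retnlg were listed at 0 in both week 1 libraries. The 10 lymphocyte markers summed to 6.399 to 8.491 in week 0, 13.08 to 14.09 in week 1, 8.023 to 11.17 in week 2, 7.466 to 11.15 in week 3 and 13.22 to 14.93 in GS cells. Of 4 tested at week 1, 2 rose, Cd3e (log2 difference 2.75, limma adjusted p = 6.56e-06) and Cd79a (0.88), and 1 fell. Cd4, Cd8a, Ms4a1 and Nkg7 were listed at 0 in both week 1 libraries. The part of leukocytes in the levels of the chemokine genes was not tested.

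**Figure D4:**
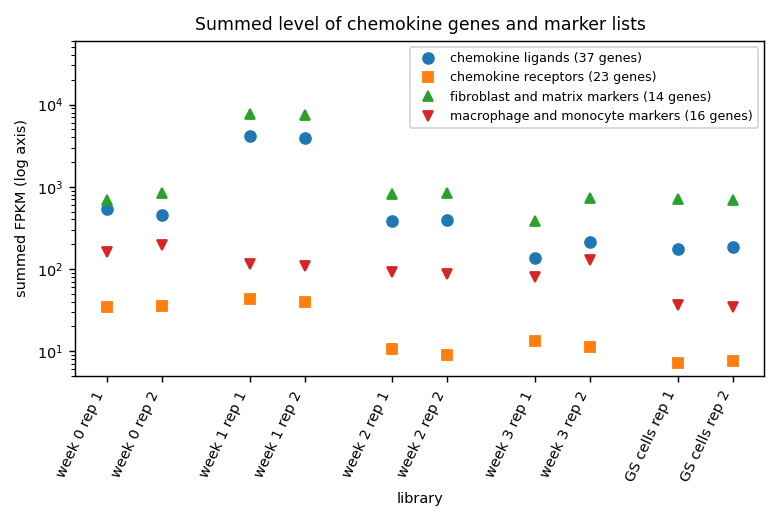
Summed FPKM (vertical axis, logarithmic) of the 37 ligand genes, the 23 receptor genes, 14 fibroblast and matrix markers and 16 macrophage and monocyte markers in each of the 10 libraries (horizontal axis), 1 point per library. Ligands and fibroblast markers peak in the 2 week 1 libraries, at 3893 to 4096 and 7562 to 7602, whereas macrophage markers are highest at week 0, at 159.3 to 195.2.

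After week 1 the family fell. At week 2 none of the 34 genes was called higher than at week 1 in limma, also at an unadjusted p under 0.05 (0 genes), and 23 were called lower, 19 ligands and 4 receptors, when 28.2% of all genes tested were called higher and 27.4% lower. The median log2 difference was -1.36, against 0.03 over all genes. Common scaling of the FPKM sums gave 2 called higher, and a fit of the 2 groups alone gave 1. The largest falls were those of Ccl2 (log2 difference -4.38, SE 0.24), Cxcl3 (-4.03, SE 0.16), Cxcl14 (-3.64, SE 0.46), Cxcl5 (-3.52, SE 0.27), Cxcl1 (-3.49, SE 0.25), Ackr3 (-3.30, SE 0.20) and Ccl7 (-3.29, SE 0.18), all with limma adjusted p of 0.000297 or less.

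At week 3, 3 genes were called higher than at week 2 and 10 lower, where 10.6% of all genes tested were higher and 10.7% lower. The 10 lower genes were all ligands, the 4 ELR ligands with Ccl2, Ccl7, Ccl11, Ccl20, Cxcl10 and Cxcl12. The 3 higher genes were Ccl25, Cx3cl1 and Ccr4, and this count was 0 without week 2 replicate 1, week 2 replicate 2 or week 3 replicate 1. Over the 34 genes, the 2 week 3 libraries differed more than those of other groups. In week 3, 25 of the 34 were higher in replicate 2 and 8 in replicate 1. Also, 9 of the 34 differed by over 1.5-fold in FPKM + 1, against 1 to 3 in the other groups. Across all genes tested week 3 did not stand out, with a correlation of 0.9916 between its libraries, against 0.9869 in week 1. The fibroblast and matrix markers summed to 384.2 and 739.8 in the same 2 libraries, and their part in the difference was not tested.

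Fewer genes differed between GS cells and week 3. Against week 3, 6 ligands were called higher, Cxcl1, Cxcl2, Cxcl3, Cxcl5, Ccl20 and Cxcl10, where 11.7% of all genes tested were called higher, and 5 genes were called lower, Ccl6, Ccl7, Ccl25, Cx3cl1 and Ccr4, where 10.8% were. The lower count was 1 without GS cells replicate 2, and 3 without week 3 replicate 2, GS cells replicate 1 or any library of weeks 1 and 2. Against the cells at week 0, 9 ligands and no receptor were called higher (0 receptors also at an unadjusted p under 0.05), with 34.7% higher among all genes tested, and 10 ligands and 8 receptors lower, with 45.9% lower. After quantile normalization this split was 11 higher and 11 lower, while the median of all genes in the comparison moved from -0.21 to 0.42. The ligands higher in GS cells than at week 0 were Cxcl1, Cxcl3, Cxcl5, Ccl2, Ccl6, Ccl7, Ccl8, Ccl11 and Ccl20. The largest decreases were those of Ccl27a (log2 difference -6.31, SE 0.36, limma adjusted p = 6.1e-07), Ccl4 (-4.64, SE 0.17, limma adjusted p = 3.9e-08) and Ccl3 (-4.32, SE 0.17, limma adjusted p = 5.72e-08).

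**Figure D5:**
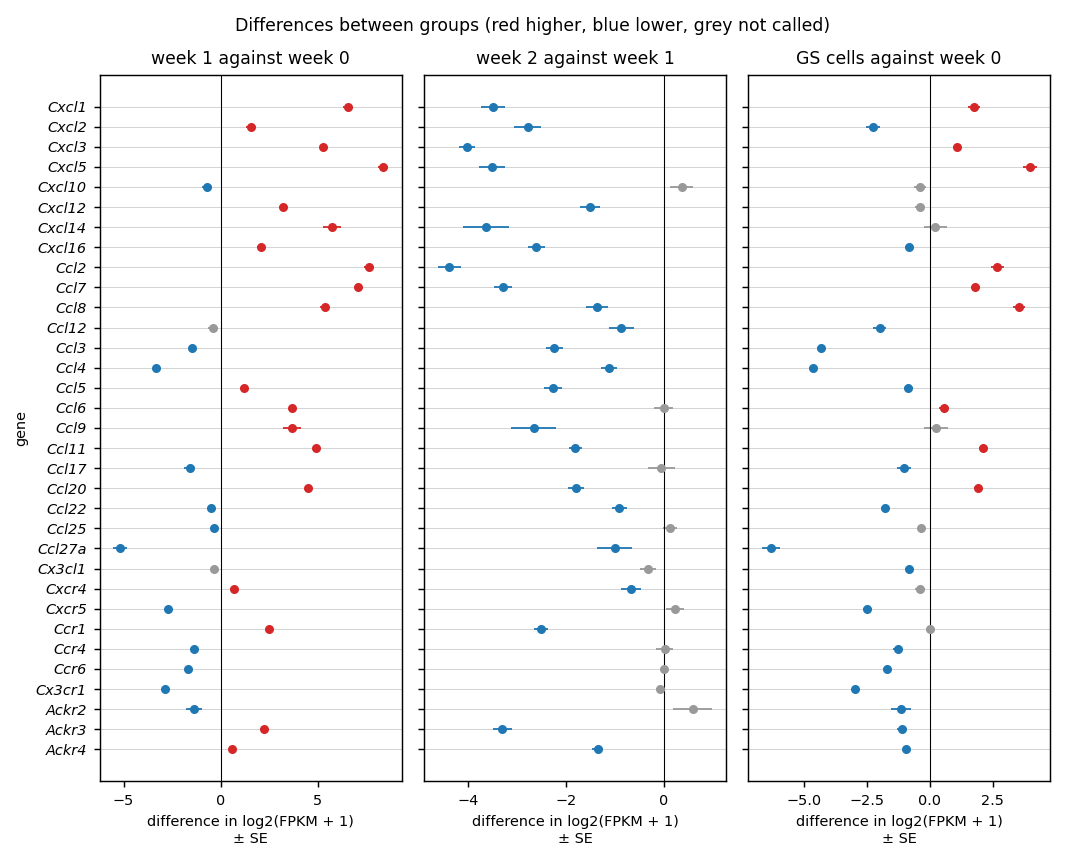
Difference in log2(FPKM + 1) with its limma standard error (horizontal axes, each with its own range) for 33 of the 34 genes (vertical axis) in 3 comparisons, red where called higher, blue where called lower and grey where not called. In the middle panel, week 2 against week 1, no gene is red and 23 are blue.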

How the data were processed

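The deposited table gives FPKM per gene and library, made by the authors; per the submitters' processing notes, the tools included HISAT2 2.1.0 and Bowtie2 2.3.4.1, Cufflinks 2.2.1 with Cuffdiff, and cutadapt 1.16, on build mm10. FPKM are not counts, so log2(FPKM + 1) was fitted with limma 3.58.1 in R 4.3.3 over the 5 groups with an intensity trend, and p-values were adjusted by Benjamini-Hochberg over 15671 genes in each comparison. Values at low levels were whole multiples of 1 read, within 0.15 read, for 95.81% to 99.39% of cases, which gave the depths. Coordinates are those of GENCODE, matched for 21951 of the 21969 identifiers. The counts and sums include 1 receptor and 1 lymphocyte marker whose own values are not reported here. The members, roles and gene lists were chosen with earlier results of these data known. Named were every other member that reached FPKM 1 in 2 libraries, others that reached FPKM 0.5 in any library, and of each pathway list at most the 5 genes with the largest called change at week 1. The alternatives were other pseudocounts, filters and scalings, fits of 2 groups, of no trend and with a replicate block, and each library left out in turn. The fit was also run on simulated data in which few genes changed at week 1, unlike the data here. That run cannot show how scaling affects the calls.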

Additional observations from a re-analysis of the deposited data

How the results depend on the processing

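Of the 106 calls made over the 5 comparisons for the 34 genes, 71 were kept in all 19 alternative fits and 35 were lost in at least 1. All alternatives kept 27 of 32 calls at week 1 against week 0, 20 of 23 at week 2 against week 1, 4 of 13 at week 3 against week 2, 1 of 11 in GS cells against week 3 and 19 of 27 in GS cells against week 0. A fit of only the 2 groups compared, which has fewer samples, gave 1 gene higher at week 2, 5 lower at week 3, and 1 higher and 2 lower in GS cells against week 3. The common FPKM sum gave 2 higher at week 2. Without a filter 1 gene was higher at week 3 and 3 were lower in GS cells against week 3, and 3 were lower in the latter without the trend; the cause was not tested. Quantile normalization left 11 genes lower in GS cells against week 0 and moved the median of all genes at week 1 from -0.14 to 0.35. With it, small decreases changed sign: Ccl12, Ccl22 and Ccl25 at week 1 (0.318, 0.22 and 0.077), and Ccl17, Cx3cl1, Cxcl12, Cxcl16 and Cxcr4 in GS cells against week 0 (0.025, 0.009, 0.334, 0.129 and 0.559). Cxcl12 and Cxcr4 did so too on the common FPKM sum (0.049 and 0.018). Leaving out 1 library gave 0 to 3 genes higher at week 3 and 1 to 4 lower in GS cells against week 3. Same-numbered libraries did not deviate together (correlations -0.0525 to 0.0458 over 10 pairs of groups). This cannot show whether same-numbered libraries came from the same animals or cultures. With the replicate block the counts higher and lower were 19 and 12, 0 and 22, 2 and 10, 6 and 5, and 9 and 18 in the order of comparisons above. At these depths members listed at 0 could not be told from members at a few reads.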

Other observations

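The counts of 4 pathway lists are given here beside those of all genes tested, of which 36.3% were called higher and 44.0% lower at week 1, and 28.2% higher and 27.4% lower at week 2. The lists were chosen with earlier results of these data known, so their counts are descriptive and test no pathway. Of 30 genes of the NF-kB pathway and its inducers 20 rose and 5 fell between week 0 and week 1, or 3 fell after quantile normalization. The largest changes were those of Il6, an inflammatory cytokine (log2 difference 8.23, SE 0.54), Il1a, the alarm cytokine (3.26, SE 0.13), Cebpb, a transcription factor of inflammatory genes (3.24, SE 0.13), Tnf, a main inducer of NF-kB (-3.15, SE 0.25), and Bcl3, a nuclear partner of NF-kB (3.09, SE 0.21). Il6 was at FPKM 0.05 and 0.35 in week 0, 372 and 339 in week 1, 9.23 and 10.1 in week 2, 0.37 and 4.75 in week 3, and 13.5 and 13.6 in GS cells. Tnf went the other way, from 9.94 and 12.7 in week 0 to 0.81 and 0.05 in week 1. At week 2, 2 of the 30 rose and 17 fell.

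All 11 tested proteases that cut chemokines rose at week 1, led by Mmp3, Mmp13, Mmp2, Mmp14 and Mmp12 (log2 differences 10.32, 8.41, 4.14, 2.64 and 2.63). These matrix metalloproteinases shorten chemokines and digest collagen and other matrix. Mmp3 was listed at 0 in both week 0 libraries and at 1286 and 1266 in week 1. At week 2, 5 of the 11 fell, when 27.4% of all genes tested were called lower.

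Of 30 genes that signal below chemokine receptors 15 rose and 9 fell at week 1, when 36.3% of all genes tested were called higher and 44.0% lower. Rgs16, a brake on G protein signalling, and Gng2, a G protein subunit, rose (log2 differences 4.44 and 3.18), and Grk3, a receptor kinase, and the leukocyte genes Vav1 and Rac2 fell (-3.07, -3.05 and -2.52). The call of Rac2 was lost without either week 0 library or week 1 replicate 2 (adjusted p from 0.0651 to 0.115). Of 15 tested genes of the interferon pathway 9 rose and 2 fell, against the same shares of all genes. Ifnb1, encoding interferon beta, fell from 3.17 and 6.34 in week 0 and was listed at 0 in all 8 other libraries, while Ifnar2, Jak1, Ifngr2 and Irf1 rose (2.21, 2.14, 2.11 and 1.90).

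The chemokine-related genes with other names were Pf4 and Ppbp, the platelet chemokines CXCL4 and CXCL7, and Ccrl2, a chemerin-binding receptor. Pf4 was at 9.01 and 13.0 in week 0, 33.2 and 25.7 in week 1, 6.69 and 12.4 in week 2, 3.90 and 3.59 in week 3, and 1.19 and 1.00 in GS cells. Ppbp was listed at 0 in both week 0 libraries and at 13.0 and 11.7 in week 1. Both rose at week 1 (log2 differences 1.35 and 3.74, limma adjusted p = 0.00174 and 4.67e-07), and Ccrl2 fell (-1.41, limma adjusted p = 0.000587).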
